A study of Mus musculus with 18 samples.

Results

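Il6ra encodes the alpha chain of the interleukin-6 receptor, which binds IL-6 and signals through its partner gp130 and STAT3, and naive CD4 T cells carry this receptor. The data described here cover 12 CpG cytosines in the last intron of the mouse gene, which were chosen by position, as all CpG cytosines between 89679038 and 89679232 on chromosome 3 of the mm9 genome. They are 12 of the 64 CpG cytosines that were read in all 18 libraries of the series. The remaining 52 lie in other loci. Of the 12 cytosines, 5 are forward-strand and 7 reverse-strand cytosines, and all 12 had at least 10 reads in every library.

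The samples were sorted T cells of female C57/BL6 mice, 4 to 6 weeks old, at 3 stages. DP thymocytes carry both CD4 and CD8, CD4 SP thymocytes have kept CD4 alone, and naive CD4 T cells (CD62L high, CD25 negative, CD44 low) came from pooled spleen and lymph nodes. No genotype or treatment distinguished the groups. Each stage has 3 BS-seq and 3 oxBS-seq libraries, numbered 1 to 3, and a BS and an oxBS library of 1 stage with the same number come from 1 divided DNA sample. The files hold no expression values, so the labelled cell types could not be checked against marker genes. Shares are averages over many cells, and an intermediate share does not tell cells that differ from alleles that differ within a cell.

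In mammalian DNA most 5-methylcytosine (5mC) sits at CpGs, where it is mirrored on both strands. TET enzymes oxidise 5mC to 5-hydroxymethylcytosine (5hmC) and further, which is one route by which methylation is lost. The bisulfite reaction of BS-seq turns unmodified cytosine into T and leaves both 5mC and 5hmC as C, so a BS library reports the sum of both marks. Forms oxidised beyond 5hmC are also read as T, so a lower BS share does not tell them from unmodified cytosine. In oxBS-seq 5hmC is oxidised first and then also read as T, which leaves 5mC as the only mark read as C. The unconverted share, the percent of reads with C at a position, is the level used throughout, and BS minus oxBS is the direct estimate of 5hmC.

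The interval is 195 bp long and was read at chr3:89679038-89679232. Il6ra (ENSMUSG00000027947.7) lies on the reverse strand of chromosome 3 from 89673246 to 89717084, so reverse-strand cytosines belong to its sense strand and forward-strand cytosines to its template strand. The interval is intronic. Exon 9 is 1499 bp away, and exon 10, the last one, is 3730 bp away. The forward strand of mm9 (NCBIM37 assembly) is printed below with the 7 CpGs in capitals, since they are described in 2 groups by their spacing. A link between spacing and the results was not tested.

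Il6ra interval: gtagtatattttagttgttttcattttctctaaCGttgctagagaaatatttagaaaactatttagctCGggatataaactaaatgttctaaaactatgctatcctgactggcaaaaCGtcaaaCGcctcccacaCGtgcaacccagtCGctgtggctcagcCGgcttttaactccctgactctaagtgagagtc

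From left to right these are CpGs 1 to 7. CpGs 1 and 2, at -102 and -67 bp from the E-box CpG, are 35 bp apart, were read on the reverse strand only, and are called the outer CpGs below. CpGs 3 to 7 are separated by 7, 11, 13 and 14 bp, were read on both strands, and are called the cluster. CpG 5 is the centre of an E-box, CACGTG, at 89679171 to 89679176. E-boxes are bound by basic helix-loop-helix factors such as MYC with MAX and USF, and methylation of the central CpG is known to hinder the binding of several of them. The motif reads the same on both strands. It was found in 1.73% of 802005 windows of the same length as the interval on chromosome 3, in 7.15% of 32851 RefSeq promoters (GRCm38.p6 table) and in 0 of the 3 other loci of the series. Promoters and loci were searched over their own lengths, so these rates are not comparable with the rate of the windows.

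The bases around the E-box, chr3:89679159-89679188, are shown as the forward strand of the genome has them, with the motif in capitals.

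Genome: aaacgcctcccaCACGTGcaacccagtcgc

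On this strand the measured quantity is the share of reads that keep the C at 89679173.

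Depth differed by strand and in 1 library by far more. Forward-strand cytosines had 38629 to 126198 reads and reverse-strand cytosines 1819 to 17986, apart from naive CD4 BS library 1, which had 72 to 73 reads on the forward strand. This library has 3.29% of its read-outs in the interval and the other 17 have 26.9 to 58.3%. The reads are PCR products without molecular identifiers, so intervals cover counting error only. The forward-strand naive CD4 BS values therefore include 1 library of low depth, and the main ones are also given without it or by library. At all cytosines, DP oxBS library 3 lay above DP oxBS libraries 1 and 2. Unconverted shares at the 57 non-CpG cytosines of the interval, the background of the assay, averaged 0.172 to 0.296% per library. In the control DNA added to each sample, the unmodified control read 0.0393 to 0.0682% and the 5mC control 99.2 to 99.4%. The 5hmC control read 5.51 to 6.92% in BS and 0.647 to 1.498% in oxBS libraries. The study describes that DNA as impure, and no oxidation efficiency was computed from it here.

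**Figure D1:**
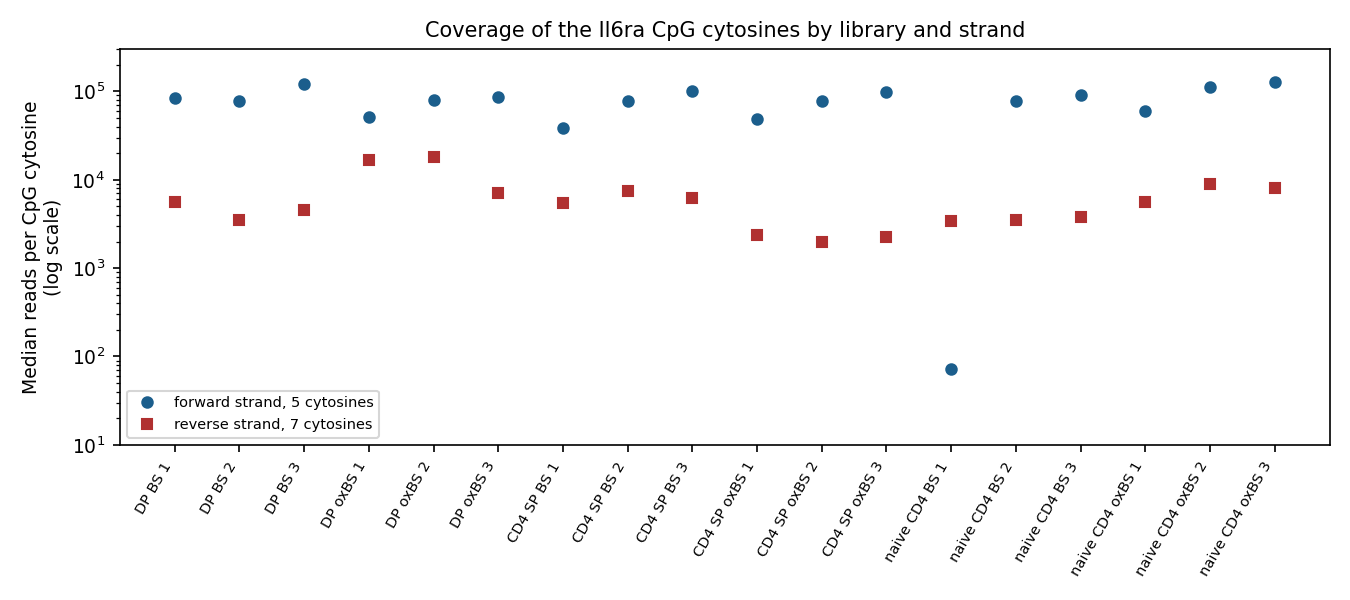
Median reads per CpG cytosine on the forward (circles, 5 cytosines) and reverse strand (squares, 7 cytosines) in each of the 18 libraries, on a log scale. The forward strand of naive CD4 BS library 1, at a median of 73 reads, is the lowest point by far, while its reverse strand lies among the other libraries.

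On the sense strand the BS share of the E-box CpG fell from a mean of 96.8% in DP to 1.68% in naive CD4 cells. Of this fall, 50.3% was present in CD4 SP thymocytes. The naive CD4 oxBS share there was higher, at 20.95%, so the assays conflict on what was left. On the reverse strand (89679174) the BS share was 96.7, 96.4 and 97.3% in the DP libraries, 51.5, 46.7 and 48.8% in CD4 SP, and then 1.80, 1.28 and 1.96% in naive CD4. The 3 stages did not overlap. The naive CD4 mean was 1.68% ± 0.356 (SD, n = 3), and the non-CpG background of the interval averaged 0.184% ± 0.0120 (SD, n = 3) in the same libraries. The highest reverse-strand non-CpG cytosine, 89679176 in the E-box, read 1.13, 1.45 and 1.57% in them, which overlaps the values at 89679174. From DP to CD4 SP the BS share at 89679174 changed by -47.8 ± 1.41 points (SE) and from DP to naive CD4 by -95.1 ± 0.344. The exact permutation F test over the 9 libraries gave an adjusted p of 0.00457, from a raw p of 0.00357, the smallest that 1680 arrangements allow.

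On the forward strand of the E-box CpG (89679173) the BS share was 91.7, 91.7 and 91.6% in DP and 44.1, 41.1 and 41.3% in CD4 SP. In naive CD4 it was 36.1, 1.40 and 1.59%. The value of 36.1% comes from the 72 reads of BS library 1 and has a Wilson interval of 26.0 to 47.6%. The stages still did not overlap, since all 3 naive CD4 values are below the CD4 SP values (exact permutation F test, adjusted p = 0.00457). Between DP and naive CD4 the share changed by -78.6 ± 11.5 points (SE) with library 1 and -90.2 without it.

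The oxBS share of the E-box CpG fell mostly between CD4 SP and naive CD4 cells. On the reverse strand it was 77.2, 76.2 and 81.9% in DP, 73.0, 71.6 and 72.1% in CD4 SP and then 22.8, 19.4 and 20.7% in naive CD4. The change of -6.25 ± 1.81 points from DP to CD4 SP passed the test (edgeR quasi-likelihood test, adjusted p = 0.000720), and the libraries did not overlap. At the next step, between CD4 SP and naive CD4, the change was -51.3 ± 1.08 points. On the forward strand the shares were 58.9, 58.6 and 63.6% in DP, 60.6, 59.8 and 59.97% in CD4 SP and then 22.9, 22.6 and 22.3% in naive CD4. DP and CD4 SP overlapped there, with a difference of -0.240 ± 1.64 points (edgeR adjusted p = 0.954). This difference changed sign without the libraries numbered 3, and the log2 odds change then was 0.087. The 3 stages together differed on both strands (exact permutation F test, adjusted p = 0.0387 at 89679173 and 0.00571 at 89679174).

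**Figure D2:**
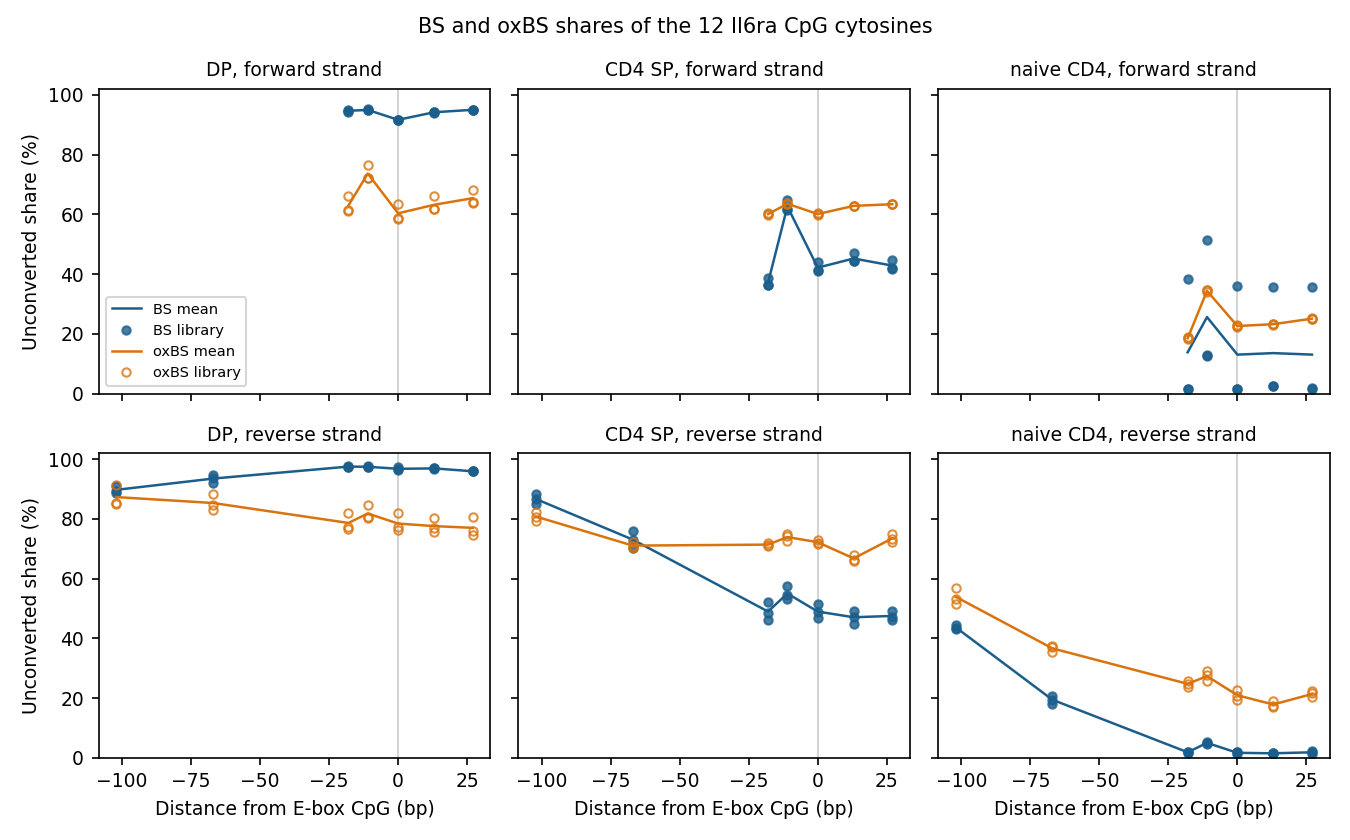
Unconverted share in percent of the 12 cytosines against the distance in bp from the E-box CpG, for forward (top) and reverse strand (bottom) and for DP, CD4 SP and naive CD4. Filled points are BS and open points oxBS libraries, and lines join the means of 3 libraries. BS lies above oxBS in DP, crosses it between CpG 2 and CpG 3 on the reverse strand in CD4 SP, and lies below it in naive CD4, except for the points of naive CD4 BS library 1 on the forward strand.

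The mean BS share of all 12 cytosines fell at each step. In DP the BS shares ranged from 89.8% at CpG 1 to 97.5% on the reverse strand of CpG 3, in CD4 SP from 37.1% to 86.7%, and in naive CD4 from 1.52% to 43.7%, or 1.49% to 44.0% without naive CD4 BS library 1. At 1 of the 12, the forward strand of CpG 3, the stages overlapped, since naive CD4 BS library 1 read 38.4% there and the CD4 SP libraries 36.3 to 38.6%. The stages differed at 12 of 12 cytosines (exact permutation F test, adjusted p at most 0.0125), where 90.6% of all 64 CpG cytosines tested were called. With edgeR the BS share was lower in CD4 SP than in DP at 12 of 12, beside 73.4% of all cytosines, lower in naive CD4 than in CD4 SP at 12 of 12, beside 90.6%, and lower in naive CD4 than in DP at 12 of 12, beside 89.1%. The median change from DP to CD4 SP was -48.5 points over the 12 cytosines and -5.05 over all 64. From CD4 SP to naive CD4 these medians were -44.3 and -15.3 points, and from DP to naive CD4 -81.4 and -22.3. Without naive CD4 BS library 1 they were -45.5 and -15.7, and -92.8 and -22.8. A fall is therefore common in the series, and the sizes are what differ between these medians.

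In both assays CpG 1, the farthest from the E-box, changed least between DP and naive CD4. Its BS share was 89.4, 88.8 and 91.1% in DP, 88.2, 85.1 and 86.6% in CD4 SP and then 43.0, 43.6 and 44.5% in naive CD4. DP and CD4 SP differed by -3.10 ± 1.13 points (edgeR adjusted p = 0.0143), a difference that did not pass with limma on log2 odds (limma adjusted p = 0.0602), without DP BS library 3 (edgeR adjusted p = 0.0871) or without CD4 SP BS library 2 (edgeR adjusted p = 0.0797). Naive CD4 cells thus still read a BS share of 43.7% ± 0.756 (SD, n = 3) there, the highest of the 12. CpG 2, the other outer CpG, had 93.5% ± 1.25, 73.1% ± 2.74 and 19.5% ± 1.27 (SD, n = 3 each) in DP, CD4 SP and naive CD4.

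On the reverse strand of the cluster the BS share was low in naive CD4 cells, although the oxBS means there were higher, at 17.9 to 27.4%. The mean BS shares were 1.86% ± 0.250 at CpG 3, 5.01% ± 0.406 at CpG 4, 1.68% ± 0.356 at CpG 5, 1.52% ± 0.197 at CpG 6 and 1.86% ± 0.465 at CpG 7 (SD, n = 3 each). CpG 4 was above the others in all 3 libraries, whereas the libraries of CpGs 3, 5, 6 and 7 overlapped. Its forward strand stood out in the same way, at 12.6 and 12.8% in naive CD4 BS libraries 2 and 3, against 1.40 to 2.58% at the other forward cytosines in these libraries. CpG 4 forward also kept the highest BS share of the cluster in CD4 SP, with 64.7, 61.6 and 61.7%.

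CD4 SP thymocytes stood at different points of the fall along the interval. Of the drop in mean BS share from DP to naive CD4, 6.72% was present in CD4 SP at CpG 1, 27.6% at CpG 2 and 45.9 to 52.2% at the 5 reverse-strand cytosines of the cluster. On the forward strand of the cluster it was 46.6 to 71.2%, or 39.3 to 61.8% without naive CD4 BS library 1. These are ratios of means and were not tested.

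In the oxBS libraries the 12 cytosines kept most of their share through the CD4 SP stage. The range was 60.4 to 87.3% in DP, 60.1 to 80.8% in CD4 SP and then 17.9 to 53.9% in naive CD4. The stages differed at 12 of 12 cytosines (exact permutation F test, adjusted p at most 0.0387), beside 92.2% of all 64. From DP to CD4 SP, 8 of 12 were lower by edgeR, beside 56.2% of all, none was higher, and the median change was -6.39 points, or -2.46 over all 64. The 4 that did not pass were the forward strands of CpGs 3, 5, 6 and 7, with changes of -2.86 ± 1.63, -0.240 ± 1.64, -0.357 ± 1.47 and -2.01 ± 1.41 points. Without naive CD4 BS library 1, which enters the spread that edgeR estimates for each cytosine, the forward strand of CpG 3 passed (edgeR adjusted p = 0.0334). The reverse strand of CpG 7, at -3.52 ± 1.93 points (edgeR adjusted p = 0.0301), did not pass without DP oxBS library 3, CD4 SP oxBS library 1 or CD4 SP oxBS library 2 (edgeR adjusted p = 0.179, 0.0788 and 0.101), and the forward strand of CpG 4 did not pass without the libraries numbered 2 or 3 (edgeR adjusted p = 0.296 and 0.321). From CD4 SP to naive CD4, 12 of 12 were lower, beside 87.5%, with medians of -40.6 points over the 12 cytosines and -9.61 over all 64. From DP to naive CD4, 12 of 12 were lower, again beside 87.5%, with medians of -46.6 and -14.2 points.

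The largest oxBS drop was on the reverse strand of CpG 6 (89679187). Its shares were 76.8, 75.7 and 80.3% in DP, 66.4, 66.0 and 68.0% in CD4 SP and then 19.2, 16.9 and 17.5% in naive CD4, a change of -59.7 ± 1.56 points from DP to naive CD4 (SE). The stages did not overlap. The adjusted p of 0.00571 (exact permutation F test) is a description only, since this cytosine was chosen for its oxBS change. Its naive CD4 mean of 17.9% was the lowest of the 12, but its libraries overlapped those of the forward strand of CpG 3, at 18.5% ± 0.392. The smallest drop was at CpG 1, from 85.4, 85.0 and 91.5% in DP through 79.4, 80.6 and 82.4% in CD4 SP to 56.9, 51.7 and 53.3% in naive CD4, a change of -33.4 ± 2.60 points (SE). CpG 1 therefore kept the most of both readouts.

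The part of the oxBS drop present in CD4 SP was 0.635% at 89679173 and 10.9% at 89679174, the 2 cytosines of the E-box CpG, and at most 29.3%, at CpG 2. At every one of the 10 cluster cytosines this part was smaller for oxBS than for BS. At CpG 1 it was larger, 19.5% against 6.72%, and at CpG 2 it was 29.3% against 27.6%. These ratios were not tested either. At most cluster cytosines oxBS was above BS in CD4 SP and naive CD4, so the ratios describe the readouts only.

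BS minus oxBS changed sign along the 3 stages in the cluster. In DP the 12 cytosines had mean differences of 2.43 to 31.7 points with a median of 19.1, where the median of all 64 was 7.92. BS was above oxBS at 12 of 12 cytosines by edgeR with the pair as a block, beside 85.9% of all. It was above oxBS in all 3 pairs at 11 of 12, beside 53 of all 64. The exception is CpG 1, whose differences were 4.01, 3.76 and -0.465 points. Without the libraries numbered 2, or with limma on log2 odds, CpG 1 did not pass (edgeR adjusted p = 0.157, limma adjusted p = 0.0813) and the other 11 did.

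The forward strand of CpG 3 (89679155) had the largest DP difference, with 33.8, 33.1 and 28.3 points. The forward strand of the E-box CpG was close to it, with 32.9, 33.1 and 28.0 points, and the values of both sites overlapped. The reverse strand of the E-box CpG had 19.5, 20.1 and 15.4 points. Over the cluster the forward-strand means were 21.3 to 31.7 points and the reverse-strand means 15.7 to 19.3, with CpG 4 the lowest on each strand. The outer CpGs were lower still, at 8.19 ± 2.33 points for CpG 2 and 2.43 ± 2.51 for CpG 1 (SD, n = 3 pairs each).

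In CD4 SP the cluster read less C in BS than in oxBS. The E-box CpG had differences of -16.5, -18.6 and -18.7 points at 89679173 and -21.6, -24.9 and -23.3 at 89679174. The most negative were on the reverse strand of CpG 7 (89679201), with -23.9, -26.3 and -27.7 points. No amount of 5hmC gives a value below 0, so the BS and oxBS shares of these cytosines conflict, and neither can be taken at face value as a level of 5mC. The outer CpGs were on the other side of 0, with 8.81, 4.52 and 4.26 points at CpG 1 and 3.72, 0.243 and 2.06 at CpG 2. By edgeR 9 of 12 cytosines were lower in BS, beside 28.1% of all 64, and 1, CpG 1, was higher, beside 56.2%. CpG 2 (edgeR adjusted p = 0.0723) and the forward strand of CpG 4 (-0.894 ± 1.61 points, SD, edgeR adjusted p = 0.870) did not pass. With limma on log2 odds 5 were lower and 1 higher, and the same counts were found without the libraries numbered 2 and without those numbered 3. The 4 forward-strand calls were lost with limma (limma adjusted p from 0.216 to 0.298), and with either of these numbers left out, while the reverse-strand values of the cluster passed with both tools.

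In the same CD4 SP pairs the 5hmC control was higher in BS, with 6.92, 5.68 and 6.75%, than in oxBS, with 1.498, 1.15 and 1.15%. The sign of BS minus oxBS in the control was thus opposite to that of the cluster means. The control was a separate DNA, and the reason for the unlike signs was not tested.

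In naive CD4 cells all 12 mean differences were below 0, from -22.9 to -4.70 points, or -23.2 to -8.43 without pair 1. BS was lower at 12 of 12 by edgeR, beside 46.9% of all cytosines, at 10 of 12 with limma, and at 7 of 12 without the libraries numbered 2 or without those numbered 3. The 5 calls lost in this way were those of the forward strand, where naive CD4 BS library 1 was then 1 of 2 libraries. The 7 reverse-strand cytosines were negative in all 3 pairs, beside 26 of all 64 cytosines. The 5 forward-strand cytosines were negative in pairs 2 and 3 and positive in pair 1, which holds BS library 1. For the E-box CpG these values were 13.2, -21.2 and -20.7 points at 89679173 and -21.0, -18.1 and -18.7 at 89679174. Where the difference was below 0, the BS and oxBS shares conflict as in CD4 SP. Neither can be taken at face value there as a level of 5mC or of total modification.

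The BS minus oxBS difference varied between stages at 11 of 12 cytosines (exact permutation F test), beside 90.6% of all 64. At the E-box CpG the adjusted p of this exact permutation test was 0.0394 at 89679173 and 0.00737 at 89679174. The exception was the forward strand of CpG 4 (exact permutation F test, adjusted p = 0.118). Without naive CD4 BS library 1 all 12 passed (exact permutation F test, adjusted p at most 0.0401), and the share of all 64 in that setting is not given here. With the library number as a block between stages, which did not pair these libraries, 6 of 12 passed, beside 59.4% of all 64. In that exact permutation test the E-box CpG did not pass at 89679173 (adjusted p = 0.121) and passed at 89679174 (adjusted p = 0.0468). Between DP and CD4 SP the median change was -41.4 points over the 12 cytosines and -5.04 over all 64. CpG 1 alone moved up between these stages, by 3.43 points.

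**Figure D3:**
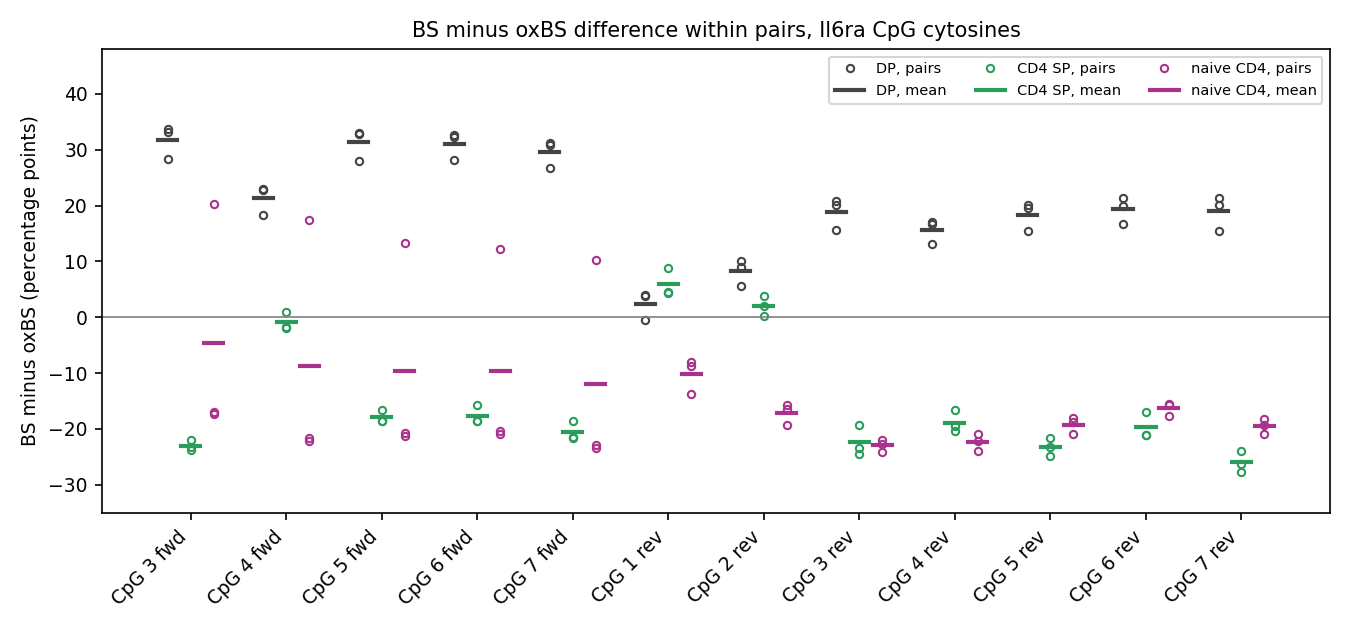
BS minus oxBS difference in percentage points for each of the 12 cytosines, forward strand (fwd) at left and reverse strand (rev) at right. Open circles are the 3 pairs of a stage and bars their mean. DP pairs lie above 0 except 1 pair at CpG 1, CD4 SP pairs of the cluster lie between -27.7 and -15.7 except at CpG 4 fwd, and naive CD4 pairs lie below 0 except pair 1 on the forward strand.

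When the proportions were held at or above 0, by pooling both assays wherever oxBS exceeded BS, the 5mC proportion of the E-box CpG was 60.4% ± 2.81 (SD, n = 3) at 89679173 and 78.5% ± 3.04 at 89679174 in DP thymocytes. For CD4 SP it was 51.5% ± 1.58 at 89679173 and 55.0% ± 3.11 at 89679174, and for naive CD4 16.8% ± 5.29 and 14.6% ± 0.329. The value at 89679173 rests on 22.9% in pair 1, with 13.96 and 13.5% in pairs 2 and 3. The 5hmC proportion in DP was 31.3% ± 2.88 at 89679173 and 18.3% ± 2.58 at 89679174, and in CD4 SP it was 0 at both. This CD4 SP level of 5mC differs from the oxBS share by -8.66 points at 89679173 and -17.2 at 89679174, so it depends on how the assays are combined.

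The 2 strands of a CpG are no longer complementary after bisulfite treatment and are read separately. In DP they gave unlike oxBS shares. The forward share was lower than the reverse share in DP at all 5 cluster CpGs, by -18.1 ± 0.416 points at the E-box, -15.7 ± 0.431 at CpG 3, -14.4 ± 0.530 at CpG 6, -11.6 ± 0.723 at CpG 7 and -8.16 ± 0.201 at CpG 4 (SD, n = 3 libraries each). In CD4 SP the 5 gaps were -3.94 to -12.1 points, negative in every library. In naive CD4 they were positive at CpGs 4, 5, 6 and 7, at 1.65 to 7.04 points, and negative at CpG 3, at -6.25 ± 1.37. CpG 3 was thus the 1 site whose forward share was lower in all 9 oxBS libraries, and the 1 of 5 that passed (exact sign-flip permutation test over 9 libraries, adjusted p = 0.00959). Of the 27 CpGs read on both strands, 14.8% passed with the forward share lower. The share that passed in either direction is not given here and is not below this. At the E-box CpG the adjusted p was 0.0603 in the same exact sign-flip permutation test, which pools stages whose gaps have different signs.

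In BS libraries the DP gaps were smaller, from -5.12 ± 0.531 points at the E-box to -0.955 ± 0.102 at CpG 7. In CD4 SP they were -11.9 ± 1.80 at CpG 3 and 7.62 ± 0.801 at CpG 4, in opposite directions at CpGs 7 bp apart and without overlap between the libraries. In naive CD4 BS libraries 2 and 3 the mean gap was -0.430 at CpG 3, -0.130 at the E-box and 7.72 at CpG 4. None of the 5 passed (exact sign-flip permutation test, adjusted p at least 0.0892). Of the 27 CpGs, 0.0% passed with the forward share lower, and the share with it higher is not given here. At an unadjusted p under 0.05 only CpG 4 of the 5 passed (exact sign-flip permutation p = 0.0430), with the forward share higher. The share of all 27 CpGs at that limit is not given here either, so this is not set against the series.

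**Figure D4:**
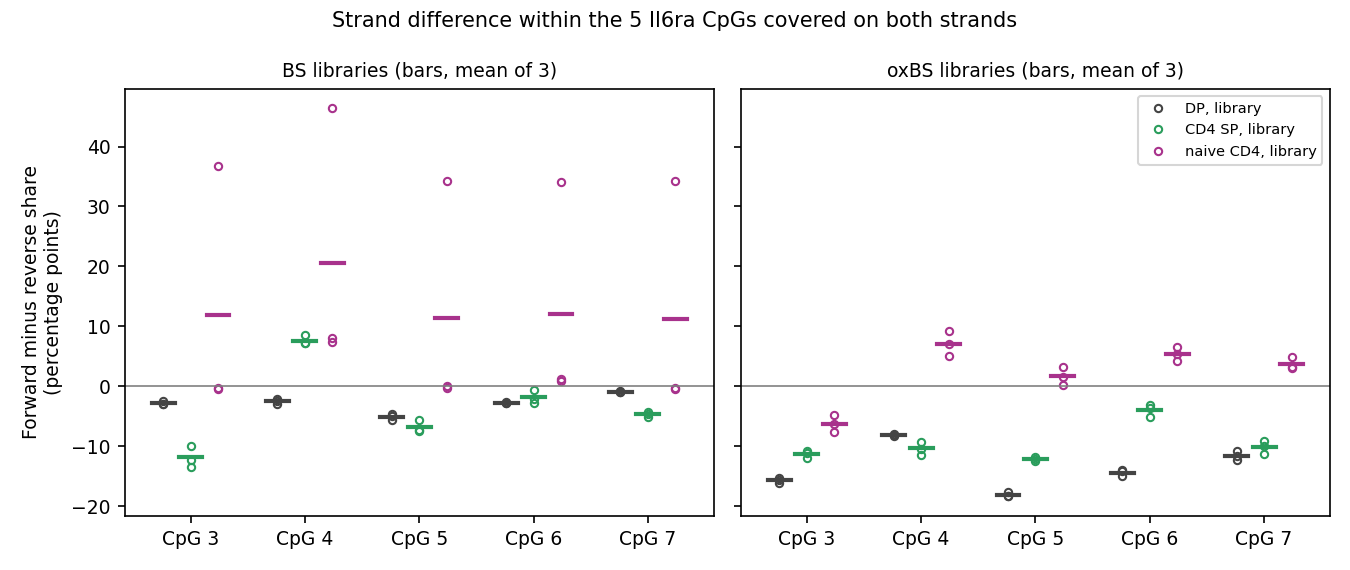
Forward minus reverse share in percentage points at the 5 CpGs read on both strands, in BS (left) and oxBS libraries (right). Circles are libraries, bars the mean of 3. In oxBS libraries the DP and CD4 SP values lie below 0 at all 5 CpGs and the naive CD4 values above 0 except at CpG 3, and in BS libraries the naive CD4 values of 34.1 to 46.4 are those of library 1.

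Averaged over the 12 cytosines, the BS share was 94.9, 94.7 and 95.1% in DP, 55.3, 51.5 and 52.6% in CD4 SP and then 22.5, 7.81 and 8.26% in naive CD4. The oxBS averages were 73.0, 72.5 and 77.5%, 68.4, 67.8 and 68.8%, and 28.1, 26.5 and 27.1%. Over the 7 reverse-strand cytosines alone, where naive CD4 BS library 1 was read about as deeply as the others, the BS means in DP, CD4 SP and naive CD4 were 95.4% ± 0.365, 58.2% ± 2.24 and 10.7% ± 0.455 and the oxBS means 80.9% ± 2.86, 72.8% ± 0.792 and 29.0% ± 1.46 (SD, n = 3 each).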

How the data were processed

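BS-seq and oxBS-seq amplicon libraries of mouse T cells at 3 stages were grouped by their labels into 6 groups of 3, from separate isolations of cells. The authors aligned read pairs with Bismark 0.7.12 and Bowtie2 to mm9 and lambda DNA and extracted all cytosine contexts, with pair overlaps counted once and a cutoff of 10 reads. The deposited files give per cytosine the counts of unconverted and of converted reads, not normalized. The percent that the authors deposited is the same share and was recomputed here from the counts.

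Members, groups of CpGs and tests were chosen with earlier results of these data known. The cytosines given in full are both of the E-box, those with the largest and smallest oxBS change, the largest DP and the most negative CD4 SP difference, and others are named where a comparison turns on them. Stages were compared per cytosine by exact permutation F tests over 9 values (1680 arrangements) and strands by exact sign-flip tests. Stage pairs, and BS against oxBS with the pair as a block, were compared with edgeR 4.0.16 (quasi-likelihood test, 1 intercept per library), which works on the log2 odds of an unconverted read. Benjamini-Hochberg adjustment ran over all 64 CpG cytosines (27 CpGs for strands), and a call is an adjusted p under 0.05. Because PCR reads are not independent molecules, edgeR p-values rest on the spread between libraries, and limma 3.58.1 on log2 odds (0.5 added to each count), which does not weight libraries by their reads, was run beside it. DP BS libraries 2 and 3 and CD4 SP oxBS libraries 2 and 3 agree within sampling noise over the 64 cytosines (chi-square p = 0.139 and 0.860). Over the 12 cytosines the DP libraries differed by more than that noise (chi-square p = 0.00212), and for the CD4 SP libraries no difference beyond it was detected (chi-square p = 0.148). As their depths differ, all were kept as separate libraries. The permutation, sign-flip and edgeR steps were tested on simulated data. Python 3.11.15, scipy 1.17.1 and R 4.3.3 were used.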

Additional observations from a re-analysis of the deposited data

Results flagged for a closer look

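The BS minus oxBS contrast differed between the 3 stages at 11 of the 12 cytosines, beside 90.6% of all 64 CpG cytosines, by the exact permutation F test adjusted over all 64. The forward strand of CpG 4 did not pass (exact permutation F test, adjusted p = 0.118). The 6 cytosines given in full are among the 11. For 89679155 and 89679201, which were chosen for extreme values of this contrast, the p-values are a description only. The adjusted p was 0.00737 at 89679072 (CpG 1), 89679155 (CpG 3), 89679174 (E-box, reverse strand) and 89679201 (CpG 7), 0.0124 at 89679187 (CpG 6) and 0.0394 at 89679173 (E-box, forward strand), each from an exact permutation test over 9 pairs. With the library number as a block, 89679173 and 89679187 did not pass (exact permutation, adjusted p = 0.121 and 0.0773) and the other 4 did, at 0.0468 each. At CpG 1 the mean differences were 2.43, 5.86 and -10.2 points in DP, CD4 SP and naive CD4, so that the sign turned at the last step. At the reverse strand of CpG 7 they were 19.0, -26.0 and -19.5 points, and the sign turned at the first step.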

How the results depend on the processing

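With the replicate block between stages the BS minus oxBS stage test passed at 6 of 12 cytosines in place of 11 (exact permutation, smallest p possible 0.0278), the oxBS test at 10 and the BS test at 12, and edgeR called the same members in all 6 comparisons of 2 stages. Numbers were taken to pair libraries where the deviations of all 3 same-numbered pairs correlated above 0.1. This held for BS from DP and from CD4 SP to naive CD4 and for oxBS from DP to CD4 SP, where the block changed no call. It did not hold for all stages of any measure, nor for any 2 stages of BS minus oxBS (r from -0.467 to 0.299), so the tests over 3 stages are given without the block. Without any 1 number, the exact F test over 6 values has a smallest p of 0.0667 and was not run. Of the oxBS strand differences 0 of 5 then passed, which decides nothing, as sign flips of 6 values allow only coarse p-values before adjustment. Of the cytosines that differed between BS and oxBS, 6 of 12 passed in CD4 SP with limma on log2 odds, and leaving out 1 number in turn gave 6 to 10 in CD4 SP and then 7 to 12 in naive CD4. Leaving out 1 number gave log2 odds changes of -0.0763 to 0.0870 for the oxBS share at 89679173 from DP to CD4 SP. Libraries that agree within sampling noise counted as 1, and each single library left out, were added after seeing the data and gave 6 and 7 to 9 calls in place of 8 for the oxBS step from DP to CD4 SP.

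The mean shares over the 12 cytosines moved by more than the spread between libraries as follows. Reads pooled over cytosines gave 94.2% BS, 68.5% oxBS and 25.7 points of difference in DP, 47.4% BS and 62.5% oxBS in CD4 SP, and 25.2% oxBS in naive CD4. The 7 reverse-strand cytosines alone, added after seeing the data, gave 95.4% BS, 80.9% oxBS and 14.5 points in DP, 58.2% and 72.8% in CD4 SP, and 29.0% oxBS in naive CD4. Correction by the lambda controls gave 95.5% BS in DP. Proportions held at or above 0 gave 58.96% total and 58.3% 5mC in CD4 SP and then 23.4% and 21.3% in naive CD4, and turned the difference to 0.683 and 2.04 points, which follows from the constraint. Of 268 counts and means under the alternatives, 17 means moved by more, 9 counts were lower, 2 differences changed sign, and 240 stayed within 1.5 times the reported count or within 1 SD of the reported mean, Fisher's exact test on pooled counts included. The depth limits the forward strand of naive CD4 BS library 1, where 72 to 73 reads carry each share.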

Other observations

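A forward non-CpG cytosine next to the E-box read above the other forward-strand background. The forward cytosine at 89679169 had the highest share of the 31 forward non-CpG cytosines of the interval in all 18 libraries, and it was picked after its values were seen. In DP its unconverted share was 1.31, 1.45 and 1.33% by BS, and by oxBS it was 3.18, 3.08 and 3.34%. In CD4 SP the order of the assays was the opposite, with 3.37, 3.32 and 3.34% in BS and 1.31, 1.22 and 1.32% in oxBS. In naive CD4 it was 4.11, 0.707 and 0.659% in BS, where the first value rests on the low coverage of library 1, and 1.65, 1.65 and 1.61% in oxBS. The median over the 31 cytosines was 0.125 to 0.196% in the 17 libraries other than naive CD4 BS library 1. On the reverse strand the cytosine at 89679176, in the E-box, had the highest non-CpG share in every BS library, at 0.805 to 1.57%. In oxBS libraries other reverse-strand cytosines were highest. These differences were not tested.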
